A study of Mus musculus with 50 samples.

Results

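The genes described here are those of the endogenous opioid system, 3 precursors of opioid peptides (*Pdyn*, *Penk* and *Pnoc*) and 4 opioid receptors (*Oprm1*, *Oprd1*, *Oprk1* and *Oprl1*), in medium spiny neurons (MSNs) of the mouse nucleus accumbens (NAc). They were chosen by gene symbol, as the 3 precursor and 4 receptor genes, and make up 7 of the 24552 genes listed. All 7 were listed in both count tables, and all 7 passed the filter on low counts in each of the 5 fits.

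RNA was sequenced from 50 libraries of NAc tissue from C57BL/6 mice (C57BL/6J in the study's methods) carrying RiboTag (RT), an HA-tagged ribosomal protein that is switched on by Cre, so that immunoprecipitation (IP) with an HA antibody recovers the ribosome-bound mRNA of the Cre-expressing cells. RT; D1-Cre mice gave 13 D1-IP libraries (4 Con, 4 Res and 5 Sus), RT; D2-Cre mice gave 15 D2-IP libraries (5 of each group), and 18 input libraries (3 for each line and group) held the RNA of the whole homogenate. Con mice were undefeated, whereas Res (resilient) and Sus (susceptible) mice had been exposed to an aggressive CD1 male for 10 min a day by the labels, a time that the study's methods give as shorter, for up to 10 days, and were then sorted by a social interaction test. A further 4 D1-IP libraries came from undefeated male RT; Sirt1-floxed; D1-Cre mice and are labelled Sirt1-KO. Mice were 8 to 12 weeks old, except that the labels of the Sirt1-KO libraries give no age, and each library pooled 2 mice. The Cre lines follow the promoters of the D1 and D2 dopamine receptors, so a D1-IP or a D2-IP averages every cell type in the punch that used the promoter. The sex of the mice is labelled for the Sirt1-KO libraries alone. The study's methods list male C57BL/6J mice but do not give the sex of the RT crosses separately.

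Opioid peptides are cut from large precursor proteins at pairs of basic amino acids. *Pdyn* encodes prodynorphin, the source of dynorphins, which prefer the kappa receptor encoded by *Oprk1*. *Penk* encodes proenkephalin, the source of Met- and Leu-enkephalin, which act on the delta receptor (*Oprd1*) and the mu receptor (*Oprm1*), and *Pnoc* encodes the precursor of nociceptin, the ligand of the receptor encoded by *Oprl1*. All 4 receptors couple to Gi/o proteins, which lower cAMP, open GIRK potassium channels and dampen transmitter release. In the striatum, dynorphin is a classical product of D1-MSNs and enkephalin of D2-MSNs.

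The sequences that make these transcripts opioid precursors are short repeats in their coding exons. The counts cover whole genes and not these stretches alone. On GRCm38 with the GENCODE vM21 annotation, the coding sequence of *Pdyn* held 3 copies of the codons for the Leu-enkephalin core, with which every opioid peptide of this precursor starts, each between codon pairs for basic residues. That of *Penk* held 7 copies of an enkephalin core, of which 6 ended in methionine and 1 in leucine. A basic pair stood before all 7 of the *Penk* copies and after 5 of them, and *Pnoc* had 1 copy of the codons for the first 5 residues of nociceptin, which starts with phenylalanine in place of tyrosine. In the lines that follow, capitals mark the 5 codons of this core and lower case the 2 codons on either side, in 5′ to 3′ direction along the minus strand, on which all 3 genes lie. The capitals of *Pdyn* copy 2 and *Penk* copy 6 are the same 15 bases, so the core alone does not tell these precursors apart. The *Pdyn* copies lie at chr2:129688232-129688258, chr2:129688124-129688150 and chr2:129688067-129688093. The *Penk* copies shown are the first at chr4:4134328-4134354, the leucine copy at chr4:4133935-4133961 and the last at chr4:4133842-4133868, and the *Pnoc* copy lies at chr14:65404872-65404898.
Pdyn copy 1: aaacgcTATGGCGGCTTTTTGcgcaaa
Pdyn copy 2: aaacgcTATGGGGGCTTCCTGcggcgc
Pdyn copy 3: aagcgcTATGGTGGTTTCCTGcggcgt
Penk copy 1: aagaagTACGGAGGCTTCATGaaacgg
Penk copy 6: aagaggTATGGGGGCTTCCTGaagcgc
Penk copy 7: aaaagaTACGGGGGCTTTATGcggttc
Pnoc copy 1: aaaaggTTTGGGGGCTTCACCggggcc

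In the same annotation the genes lie at chr2:129686565-129699844 (*Pdyn*), chr4:4133531-4138819 (*Penk*) and chr14:65400673-65425472 (*Pnoc*) on the minus strand. *Oprd1* also lies on the minus strand, at chr4:132110726-132144486. *Oprm1* (chr10:6758506-7038198), *Oprk1* (chr1:5588466-5606131) and *Oprl1* (chr2:181715016-181720985) lie on the plus strand. Their merged exons span 1634 bases in *Penk* and 9151 bases in *Oprk1*, with the others between, and *Oprm1* had 31 annotated transcripts. The longest stretch that transcripts of any 2 of the genes shared was 25 bases (*Oprk1* and *Oprl1*). On the opposite strand, 233 exon bases of *Penk* overlapped A830012C17Rik and 96 exon bases of *Oprm1* overlapped Ipcef1; the library kit marked strand, but whether counting used it is not given in the sources used here.

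Depth was 18384265 to 31009626 counts on genes in the 46 IP and input libraries and 22174187 to 31785984 in the 4 Sirt1-KO libraries. *Drd1*, the D1 receptor, had a level of 332 ± 29.3 (SD, n = 13) in D1-IPs and of 134 ± 21.1 (n = 15) in D2-IPs, in CPM, which is the count of a gene scaled to library size with TMM. For *Drd2* these levels were 97.8 ± 11.8 and 343 ± 27.7 CPM, so both IPs carried their labelled marker above the other. Markers of other cells were counted between D1-IPs and D2-IPs at over 1.5-fold and an adjusted p below 0.05 (edgeR quasi-likelihood test). Of all genes tested, 4.94% were higher and 2.71% lower in D1-IPs by this rule. Of these markers, the 6 of cortical excitatory neurons were all higher in D1-IPs (summed level 411 to 1455 CPM) than in D2-IPs (26.8 to 327 CPM). For cholinergic interneurons, 4 of 6 markers were lower (9.01 to 34.1 CPM against 63.9 to 139 CPM). Of the 4 striosome markers, 2 were lower in D1-IPs (248 to 323 CPM against 381 to 468 CPM). Of the other lists, 3 of 8 GABAergic interneuron markers were higher in D1-IPs and 2 lower, 1 of 6 astrocyte markers was higher, 1 of 6 microglia markers was lower, and 0 of 6 oligodendrocyte and 0 of 4 endothelial markers passed. All markers of the last 4 lists were lower in the IPs of both lines than in input. None of these markers was at 0 in any library, and the part of these cells in the results that follow was not tested. In such bulk samples fewer cells of a type and less RNA per cell cannot be told apart. The labels give no batch. Per the study's methods, mice came from more than one round of defeat, the 2 mice of a pool had similar social interaction ratios, and samples were split at random into sequencing sets, but which library belongs to which round or set is not given in the sources used here, so no value within a batch could be computed.

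**Figure D1:**
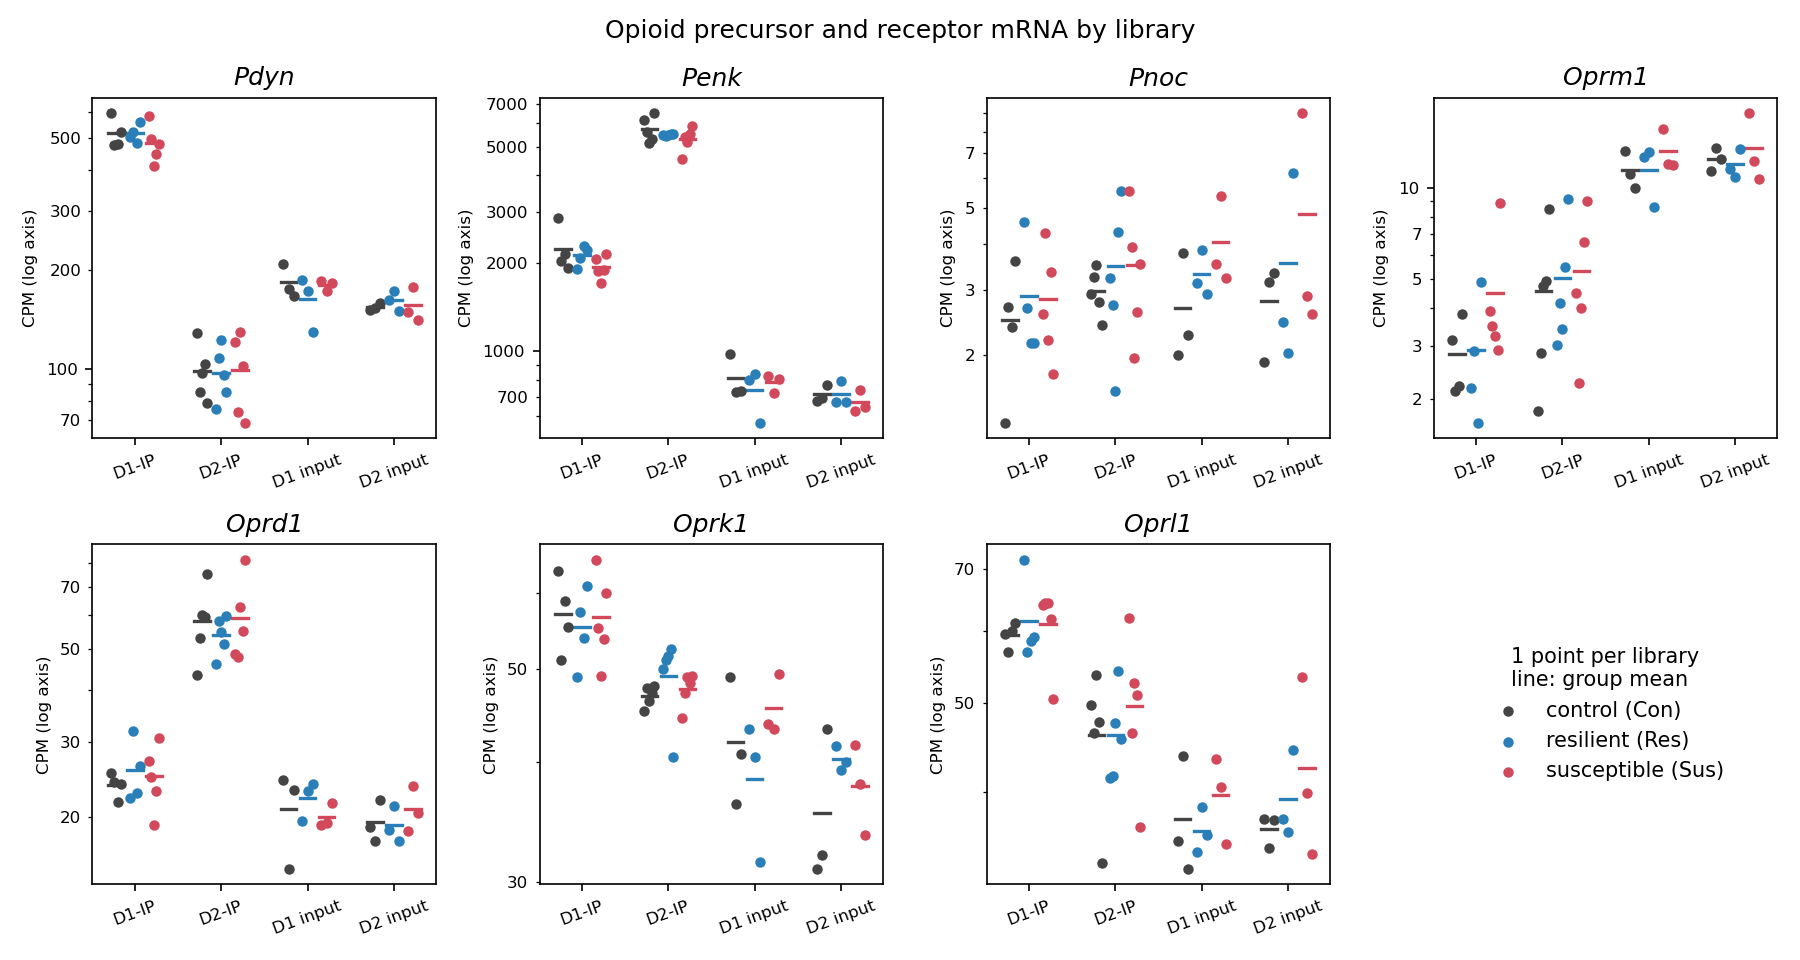
Level of each opioid gene (CPM, log axis) in the 46 IP and input libraries, by line, library type and stress group; points are libraries and short lines are group means. *Pdyn*, *Penk* and *Oprd1* separate D1-IPs from D2-IPs in every stress group, and *Oprm1* is lower in most IPs than in inputs.

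*Penk* was the most abundant of the 7 genes in every kind of library and *Pdyn* the next. Per kilobase of merged exons, the level of *Penk* was 1279 ± 171 CPM per kb in D1-IPs (SD, n = 13), 3371 ± 275 in D2-IPs (n = 15), 476 ± 67.3 in D1 inputs (n = 9) and 428 ± 35.0 in D2 inputs (n = 9). *Pdyn* was at 175 ± 17.9, 34.1 ± 7.04, 60.8 ± 7.34 and 54.4 ± 3.99 CPM per kb in the same order. Both precursors thus stood well above the receptors on this scale, and *Penk* exceeded *Pdyn* also in D1-IPs.

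Of the receptors, *Oprl1* was highest per kb in D1-IPs (16.2 ± 1.33 CPM per kb), and *Oprd1* (6.18 ± 0.888) and *Oprk1* (6.15 ± 0.557) did not differ beyond their spread. In D2-IPs, *Oprd1* (14.2 ± 2.57) and *Oprl1* (12.6 ± 1.92) overlapped in their spread, and *Oprk1* (5.23 ± 0.334) was lower. *Pnoc* (1.28 ± 0.441 in D1-IPs and 1.54 ± 0.527 in D2-IPs) and *Oprm1* (0.434 ± 0.230 and 0.617 ± 0.297) were lowest, and in D2 inputs they stood together at 1.73 ± 1.08 and 1.57 ± 0.265. The order of the receptors depended on the length used. With the longest coding transcript in place of the merged exons, *Oprk1* in D1-IPs was at 12.0 CPM per kb against 6.18 for *Oprd1*, and *Oprm1* in D1 inputs was at 7.10.

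The balance of the precursors was read as the ratio of *Penk* to *Pdyn*, both per kb. It ran from 6.27 to 8.50 in D1-IPs and from 65.9 to 151 in D2-IPs, and the inputs of both lines, from 7.34 to 8.60, stood with the D1-IPs. The ratio of *Oprk1* to *Oprd1*, the receptors preferred by the products of these precursors, ran from 0.788 to 1.19 in D1-IPs and from 0.266 to 0.477 in D2-IPs. In inputs it ran from 0.577 to 1.06 in the D1 line and from 0.705 to 1.00 in the D2 line. The ranges of D1-IPs and D2-IPs did not overlap for either ratio. Taken singly, *Oprd1* did not overlap between these IPs, whereas *Oprk1* did. The level of the receptor ratio depends on the length used, as the order of the receptors did above.

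Whether the opioid genes differ between the MSN subtypes was asked by comparing D1-IPs with D2-IPs over all stress groups. Of the 7 genes, 1 (*Pdyn*) was higher in D1-IPs and 3 (*Penk*, *Oprd1* and *Oprm1*) were lower, with a difference of over 1.5-fold and an adjusted p below 0.05. Of all 14224 genes tested, 7.66% passed, 4.94% higher and 2.71% lower. In the comparisons within Con, Res and Sus, 3 of the 7 passed each time (*Pdyn*, *Penk* and *Oprd1*), against 4.98%, 5.52% and 5.55% of all genes. The study had itself used *Pdyn* and *Penk* as markers of D1 and D2 in these IPs. Their part in these counts was thus known beforehand. The libraries of the subtypes did not overlap for 3 of the 7 genes, as for 2.60% of all genes.

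*Pdyn* ranged from 411 to 593 CPM (median 497) in D1-IPs and from 69.0 to 129 CPM (median 97.1) in D2-IPs. Every D1-IP exceeded every D2-IP by more than 3-fold. D1-IPs over D2-IPs gave a log2 fold change of 2.35 (SE 0.09, edgeR quasi-likelihood test, adjusted p = 2.4e-18), a 5.09-fold difference. In Con mice alone it was 2.38 (SE 0.16), in Res 2.40 (SE 0.16) and in Sus 2.27 (SE 0.15).

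*Penk* ranged from 1706 to 2853 CPM (median 2066) in D1-IPs and from 4520 to 6488 CPM (median 5473) in D2-IPs. The lowest D2-IP thus lay above the highest D1-IP, which was D1 Con 1. This was a log2 fold change of -1.40 (SE 0.05, edgeR quasi-likelihood test, adjusted p = 2.7e-18), or 2.65-fold lower in D1-IPs, and it was -1.37, -1.38 and -1.46 within Con, Res and Sus.

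*Oprd1*, the delta receptor, showed the same direction as *Penk*. It ranged from 19.1 to 32.0 CPM (median 24.2) in D1-IPs and from 43.3 to 81.3 CPM (median 55.0) in D2-IPs, again with no overlap. Its log2 fold change was -1.22 (SE 0.09, edgeR quasi-likelihood test, adjusted p = 3.5e-12), or 2.32-fold lower in D1-IPs. It was -1.31 within Con, -1.08 within Res and -1.26 within Sus. The 6 cholinergic interneuron markers summed to 9.01 to 34.1 CPM in D1-IPs and 63.9 to 139 CPM in D2-IPs. Their part in the *Oprd1* difference was not tested.

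*Oprk1* and *Oprl1*, the kappa and nociceptin receptors, were slightly higher in D1-IPs over all stress groups. *Oprk1* had a level of 56.3 ± 5.09 CPM in D1-IPs against 47.9 ± 3.06 CPM in D2-IPs, with a log2 fold change of 0.22 (SE 0.04, edgeR quasi-likelihood test, adjusted p = 1.6e-04). *Oprl1* was at 60.7 ± 5.01 and 47.4 ± 7.20 CPM, with a log2 fold change of 0.34 (SE 0.07, adjusted p = 1.4e-04). Both differences lay within the fold limit of 1.5, and the libraries overlapped. *Oprk1* was at 0.27, 0.16 and 0.23 within Con, Res and Sus (edgeR quasi-likelihood test, adjusted p = 0.016, 0.16 and 0.026), and *Oprl1* at 0.35, 0.40 and 0.28 (adjusted p = 0.047, 0.017 and 0.087). Set against the inputs of each line, the difference in *Oprk1* was 0.086 (adjusted p = 0.50). *Pnoc* was near the bottom of the measured range in both subtypes, with 37 to 112 counts in D1-IPs and 41 to 166 in D2-IPs, and its log2 fold change of -0.29 (95% interval -0.67 to 0.08) did not pass (edgeR quasi-likelihood test, adjusted p = 0.21).

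**Figure D2:**
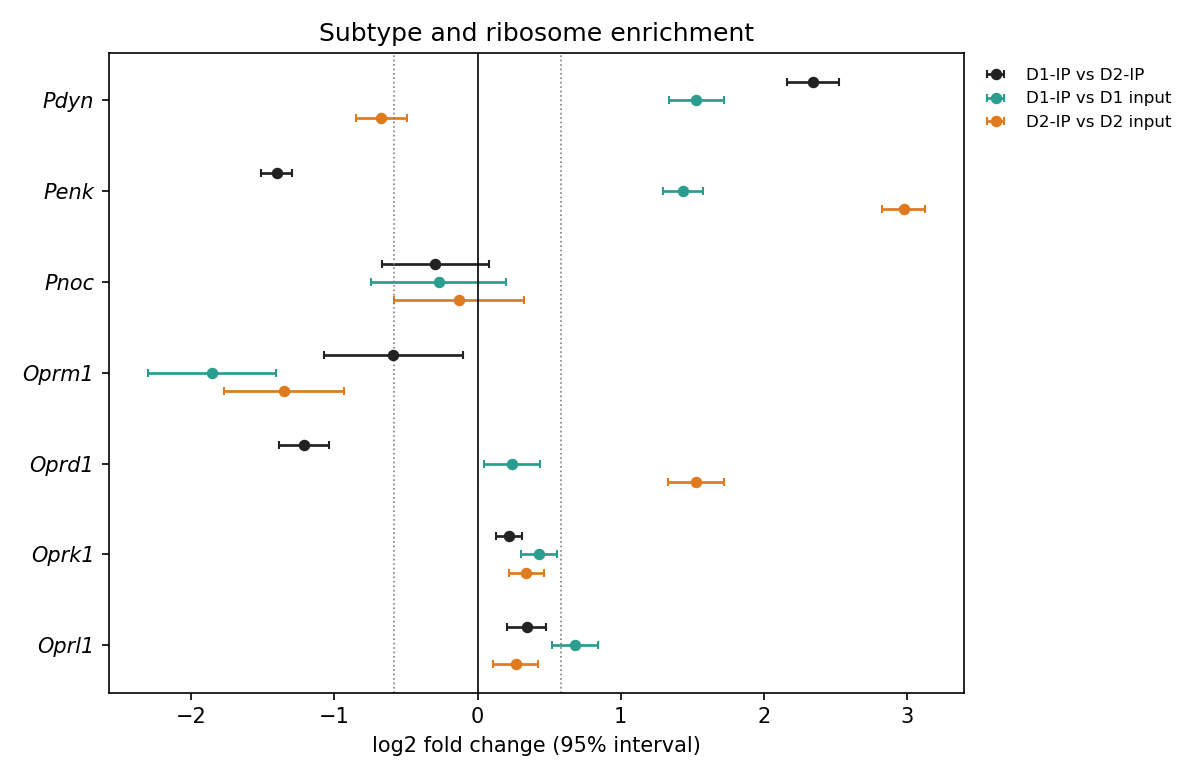
Log2 fold changes of the 7 opioid genes, with 95% intervals, for D1-IPs against D2-IPs and for each IP against the inputs of its line; dotted lines mark a 1.5-fold difference. *Pdyn* is on opposite sides of 0 in the D1-IP and D2-IP comparisons with input, whereas *Penk* is above 0 in both.

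*Oprm1*, the mu receptor, passed narrowly, and its level followed single libraries. The 13 D1-IPs ranged from 1.67 to 8.90 CPM (median 3.14) and the 15 D2-IPs from 1.82 to 9.17 CPM (median 4.5), which rest on 44 to 216 counts. The log2 fold change was -0.59 (SE 0.24, edgeR quasi-likelihood test, adjusted p = 0.048). It passed in none of the stress groups alone, at -0.70 in Con, -0.80 in Res and -0.26 in Sus. The call was lost with RLE size factors, with DESeq2 and with either other filter on low counts, and 11 of the 28 fits that each left out 1 library kept it (log2 fold change -0.72 to -0.47).

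The 4 IP libraries numbered 5, which are D1 Sus 5, D2 Con 5, D2 Res 5 and D2 Sus 5, had the highest *Oprm1* of all IPs, at 8.50 to 9.17 CPM. The other 24 IPs were at 1.67 to 6.63 CPM and the 18 inputs at 8.65 to 17.6 CPM. Reads assigned to no feature were taken as a percent of those on genes or on no feature, other unassigned reads left aside. This was 13.9 to 17.6% in the same 4 libraries, 10.4 to 16.8% in the other IPs and 23.4 to 27.2% in the inputs. Its part in *Oprm1* was not tested. Without the 4 libraries, a fit chosen after seeing the data, the log2 fold change of *Oprm1* was -0.40 (edgeR quasi-likelihood test, adjusted p = 0.094). In that fit *Pdyn* (2.28), *Penk* (-1.38) and *Oprd1* (-1.14) still passed. In D2-IPs they were also at the low end for *Oprl1* (33.5 to 45.7 CPM against 41.5 to 61.9) and at the high end for *Oprd1* (59.8 to 81.3 CPM against 43.3 to 62.8). The D1 Con and D1 Res groups analysed here hold no library numbered 5.

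**Figure D3:**
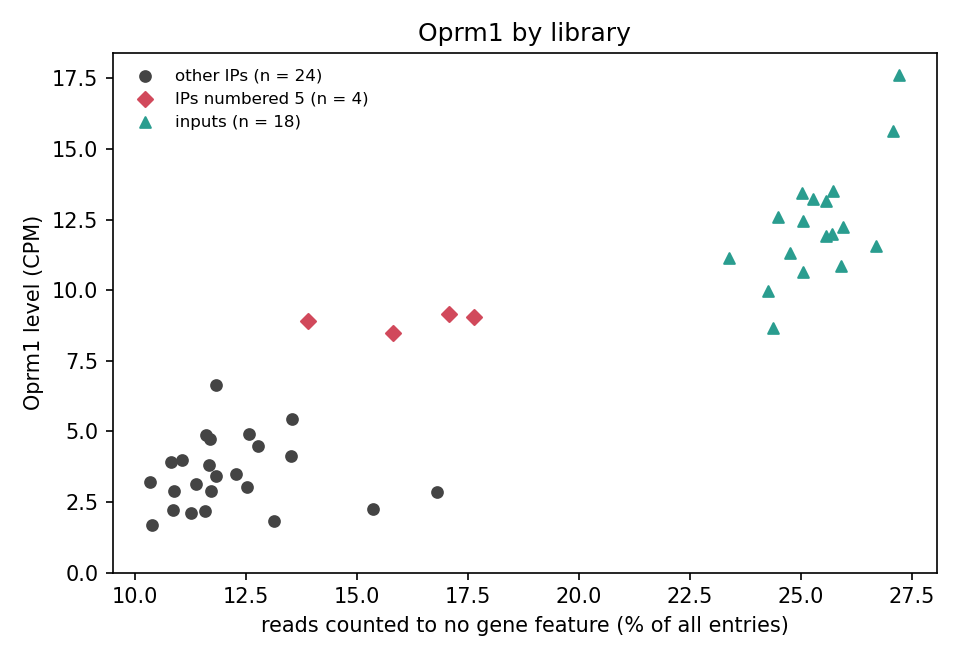
*Oprm1* (CPM) against reads assigned to no feature, as a percent of those on genes or on no feature, in the 46 libraries. Where the x axis title says all entries, reads on genes or on no feature are meant, other unassigned reads left aside. Points are libraries, coloured as IPs numbered 5, other IPs and inputs. The 4 IPs numbered 5 lie between 8.50 and 9.17 CPM, above the other 24 IPs, and the inputs lie between 23.4 and 27.2% on the x axis.

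Each IP was next compared with the inputs of its line, which asks how far a transcript is concentrated on the ribosomes of the tagged cells. In D1-IPs, 3 of the 7 genes rose over input (*Pdyn*, *Penk* and *Oprl1*) and 1 fell (*Oprm1*), against 43.1% of 15404 genes tested (13.8% higher and 29.3% lower). In D2-IPs, 2 rose (*Penk* and *Oprd1*) and 2 fell (*Pdyn* and *Oprm1*), against 43.6% of all genes (12.8% higher and 30.8% lower). The libraries did not overlap for 3 of the 7 genes in the D1 line and for 4 in the D2 line, as for 48.3% and 44.3% of all genes, so that neither count sets the opioid genes apart from the rest.

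*Pdyn* had inputs of 129 to 208 CPM in the D1 line and 141 to 177 CPM in the D2 line. It thus lay above all inputs in D1-IPs and below all inputs in D2-IPs. In the 9 D1-IPs with an input from the same homogenate the ratio of IP to input was 2.25 to 3.74, and in the 9 D2 pairs it was 0.419 to 0.916. The log2 fold changes were 1.53 (SE 0.10) and -0.67 (SE 0.09), both past the threshold (edgeR quasi-likelihood test, adjusted p = 3.9e-18 and 6.1e-09).

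*Penk* had inputs of 572 to 977 CPM in the D1 line and 624 to 795 CPM in the D2 line, and every IP of either line exceeded them. The ratio of IP to input was 2.12 to 4.02 in the D1 pairs and 6.69 to 9.10 in the D2 pairs. The log2 fold changes were 1.43 (SE 0.07) and 2.98 (SE 0.07; edgeR quasi-likelihood test, adjusted p = 7.7e-22 and 1.4e-31). Of the 5 D2 markers, 2 (*Adora2a* at 0.91 and *Gpr6* at 0.88) were also higher in D1-IPs than in D1 inputs, and *Drd2* had a log2 fold change of 0.33. The summed level of the 5 was 407 to 688 CPM in D1-IPs against 247 to 401 CPM in D1 inputs, and their part in the *Penk* signal of the D1-IPs was not tested.

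*Oprd1* was at 15.1 to 24.5 CPM in D1 inputs and 17.5 to 23.7 CPM in D2 inputs. D1-IPs overlapped their inputs (log2 fold change 0.24, below the fold limit), whereas every D2-IP lay above its inputs (1.52, SE 0.10, edgeR quasi-likelihood test, adjusted p = 5.4e-18). *Oprl1* passed in D1-IPs (0.68, SE 0.08) but stayed below the fold limit in D2-IPs (0.27, SE 0.08), and *Oprk1* stayed below it in both (0.43 and 0.34).

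*Oprm1* was lower in the IPs of both lines than in whole tissue. The log2 fold change was -1.86 (SE 0.22) in D1-IPs and -1.35 (SE 0.21) in D2-IPs (edgeR quasi-likelihood test, adjusted p = 6.1e-10 and 1.7e-07). Within pairs the ratio of IP to input was 0.173 to 0.290 in the D1 line and 0.161 to 0.381 in the D2 line, below 1 in all 18 pairs, none of which includes a library numbered 5. Over all libraries D1 Sus 5, at 8.90 CPM, overlapped the lowest D1 input. *Pnoc* did not pass in either line (-0.27 and -0.13), with pair ratios on both sides of 1.

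The difference between the lines in the log2 ratio of IP to input, which sets each subtype against its own tissue, was 2.20 for *Pdyn*, -1.54 for *Penk*, -1.29 for *Oprd1* and 0.42 for *Oprl1* (edgeR quasi-likelihood test, adjusted p = 4.1e-16, 7.9e-16, 1.6e-09 and 0.0040). For *Oprm1* (-0.50, adjusted p = 0.24), *Oprk1* (0.086, adjusted p = 0.50) and *Pnoc* (-0.14, adjusted p = 0.79) it did not pass in edgeR's quasi-likelihood test. The inputs of the lines were compared as a check. None of the 7 genes passed (edgeR quasi-likelihood test), beside 0.0266% of 15063 genes tested, and DESeq2 also called 0. At an unadjusted p under 0.05 there was 1, *Pdyn*, with a log2 fold change of 0.16 (edgeR quasi-likelihood test, adjusted p = 0.99).

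For the genes whose 12 group means spanned at least 1 on the log2 scale, the genes with the most similar pattern over the IP and input groups were found by the root mean square (rms) difference of centred log2 CPM. For *Pdyn* they were *Arhgap36* (rms 0.27), *Sec14l3* (0.30) and *Slc35d3* (0.31), and for *Penk* they were *Upb1* (0.21), *Adora2a* (0.24) and *Gpr6* (0.27). *Oprd1* was nearest to *Ptprm* (0.10), *Cd2* (0.11) and *Gpr52* (0.13), and *Oprm1* to *Myo19* (0.10), *Cfap44* (0.12) and *Snhg11* (0.12). The group means of *Pnoc*, *Oprk1* and *Oprl1* spanned 0.70 to 0.77, and no neighbours are named for them.

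Other genes of the opioid pathway were followed from lists. These held peptide processing genes, peptide degrading enzymes, Gi/o subunits, GIRK channels, and receptor kinases and arrestins. Further lists held RGS proteins with their binding partners (among them *Gnb5*, a G-protein beta subunit) and transcription factors. Between D1-IPs and D2-IPs, 3 of the 4 GIRK subunits were higher in D1-IPs, which are *Kcnj6* (log2 fold change 1.34), *Kcnj5* (0.87) and *Kcnj3* (0.86), against a background of 4.94%. *Kcnj9* was at 0.58, just under the fold limit. The cortical excitatory markers were also higher in D1-IPs (median log2 fold change 1.76), and their part in the GIRK difference was not tested. No gene passed among 8 processing genes, 7 degrading enzymes, 5 G-protein subunits and 7 kinases and arrestins. The same held for 7 RGS proteins and partners and 7 transcription factors. *Pomc*, the precursor of beta-endorphin, was at 0.17 (edgeR quasi-likelihood test, adjusted p = 0.52). Medians over these lists ran from -0.12 to 0.18, beside -0.02 for all genes tested.

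Against input, 13.8% of all genes were higher and 29.3% lower in D1-IPs and 12.8% and 30.8% in D2-IPs, and several of the counts that follow lie near or below these shares. The convertase *Pcsk2* and its chaperone *Scg5* rose in both subtypes, with log2 fold changes of 1.01 and 0.77 in D1-IPs and 1.25 and 0.84 in D2-IPs, whereas *Cpe*, which trims the basic residues, fell in D2-IPs (-0.69). Thus 2 of 8 processing genes were higher and 0 lower in D1-IPs, and 2 were higher and 1 lower in D2-IPs. Of the 8 degrading enzymes, 2 rose (*Dpp3* at 0.89 and 0.79, *Npepps* at 0.75 and 0.77) and 3 fell in each subtype (*Anpep* at -4.46 and -3.59, *Ece2* at -1.34 and -1.02, *Lnpep* at -0.75 and -0.94). Of the 7 RGS proteins and partners, which together speed the shut-off of Gi/o signalling, 3 rose in D1-IPs, with *Rgs14* at 1.23, the partner *Gnb5* at 1.07 and *Rgs4* at 0.91. In D2-IPs 4 rose, of which *Gnb5* at 1.57, *Rgs14* at 1.36 and *Rgs9* at 0.77 were the largest.

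Among the GIRK subunits 1 rose in D1-IPs (*Kcnj5* at 0.63) and 1 fell in D2-IPs (*Kcnj6* at -2.12). *Gnai1* rose in D1-IPs (0.65) and *Gnai2* fell in both (-0.80 and -0.84). Of the kinases and arrestins, *Grk4* fell in both (-1.29 and -0.85) and *Grk3* fell in D2-IPs (-0.88). Of the transcription factors, *Fosb* (0.77 and 0.81) and *Nr4a1* (0.77 and 0.91) rose in both and *Fos* in D1-IPs (1.02). *Pomc* passed in neither line.

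Whether stress alters the opioid genes was asked in 9 comparisons of Con, Res and Sus, in D1-IPs, D2-IPs and inputs, at an unadjusted p under 0.05. Of the 63 tests of the 7 genes, 2 passed, or 3.17%, and 0 did at an adjusted p under 0.05 (edgeR quasi-likelihood test, lowest adjusted p = 0.85). DESeq2 also gave 2 at an unadjusted p under 0.05. Of all genes, 5.34% passed for D1 Sus vs Con, 2.11% for D1 Res vs Con and 4.23% for D1 Sus vs Res. In D2-IPs the shares were 3.68%, 3.02% and 1.66% in the same order, and in inputs they were 4.48%, 3.22% and 5.56%. The count for the opioid genes is thus no larger than that of genes at large.

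*Penk* in D1-IPs was one of the 2. It was at 2853, 2028, 2146 and 1927 CPM in D1 Con and at 2066, 1887, 1706, 1897 and 2157 CPM in D1 Sus. The groups overlapped, and D1 Con 1 stood above the rest. Sus over Con gave a log2 fold change of -0.21 (95% interval -0.40 to -0.02, edgeR quasi-likelihood test, adjusted p = 0.85). Without D1 Con 1 it was -0.07, and without D1 Sus 2, D1 Sus 3 or D1 Sus 4 it was -0.20, -0.17 and -0.20 and did not pass. In D2-IPs the corresponding value was -0.12 (-0.29 to 0.06), and the difference between the subtypes did not pass (-0.09, 95% interval -0.35 to 0.17). Of the 5 D2 markers, 4 were also lower in D1 Sus than in D1 Con at an unadjusted p under 0.05, beside 2.84% of all genes. The median log2 fold change of the 5 was -0.25 (*Drd2* at -0.20), whereas 0 of the 5 D1 markers passed. *Drd2* overlapped between the groups, at 88.8 to 125 CPM (median 98.9) in D1 Con and 80.0 to 101 CPM in D1 Sus. The markers were not refitted without D1 Con 1, and their part in the *Penk* value was not tested.

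*Pnoc* in inputs was the other. In the D1 line it was at 2.00, 3.78 and 2.28 CPM in Con and 3.52, 5.37 and 3.23 CPM in Sus. In the D2 line it was at 1.92, 3.16 and 3.33 CPM in Con and 8.96, 2.89 and 2.58 CPM in Sus. The groups overlapped, and D2 Sus input 1 was the highest of the 18 inputs. Sus over Con gave a log2 fold change of 0.69 (95% interval 0.04 to 1.33, edgeR quasi-likelihood test, adjusted p = 0.98), and without D2 Sus input 1 it was 0.34. It also did not pass without D1 Con input 1 (0.62), D1 Con input 3 (0.64), D1 Sus input 2 (0.59) or D2 Con input 1 (0.59).

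The remaining values in the stress comparisons did not pass, and their intervals differed in width. In D1-IPs, the log2 fold changes of *Oprk1* ran from -0.05 to 0.03, within 95% intervals that reached from -0.21 to 0.19, and those of *Oprl1* from -0.02 to 0.05 (-0.26 to 0.31). *Oprd1* ran from -0.05 to 0.12 (-0.36 to 0.44) and *Pdyn* from -0.10 to 0.00 (-0.41 to 0.32). *Oprm1* had the widest, and it was at 0.65 (-0.22 to 1.52) in D1 Sus vs Con and at 0.61 (-0.26 to 1.48) in D1 Sus vs Res. Without the IPs numbered 5 the former was at 0.26.

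In D2-IPs, *Pdyn* ran from -0.02 to 0.03 (-0.32 to 0.33) and *Oprk1* from -0.04 to 0.07 (-0.19 to 0.22). *Oprd1* ran from -0.11 to 0.13 (-0.39 to 0.41), and *Oprl1* from 0.00 to 0.11 (-0.23 to 0.34). *Pnoc* reached 0.24 (-0.59 to 0.86 over the 3 comparisons) and *Oprm1* 0.21 (-0.71 to 1.00). In 21 tests of whether the stress difference itself differed between D1-IPs and D2-IPs, 0 of the opioid genes passed at an unadjusted p under 0.05 (edgeR quasi-likelihood test), and DESeq2 also called 0. The background was 1.82% for Sus vs Con, 2.36% for Res vs Con and 2.03% for Sus vs Res.

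In the pathway lists, few genes passed in the stress comparisons at an unadjusted p under 0.05, beside 5.34% of all genes for D1 Sus vs Con, 3.68% for D2 Sus vs Con and 4.48% for inputs, and those named here were chosen after their values were seen. In D1 Sus vs Con, 1 of 8 processing genes was higher, the convertase *Pcsk1* (log2 fold change 0.50, SE 0.15). Of the 7 RGS proteins and partners, 2 were lower there, *Gnb5* (-0.16) and *Rgs14* (-0.13). In D2 Sus vs Con, *Pomc* was lower (-0.81, SE 0.34), 1 of 4 GIRK subunits was higher (*Kcnj5*, 0.76) and 1 of the 7 RGS proteins and partners was lower (*Gnb5*, -0.13). In inputs, 1 of 8 degrading enzymes was higher in Sus than in Con (*Lnpep*, 0.21). All had adjusted p-values above 0.05 in edgeR's quasi-likelihood test.

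**Figure D4:**
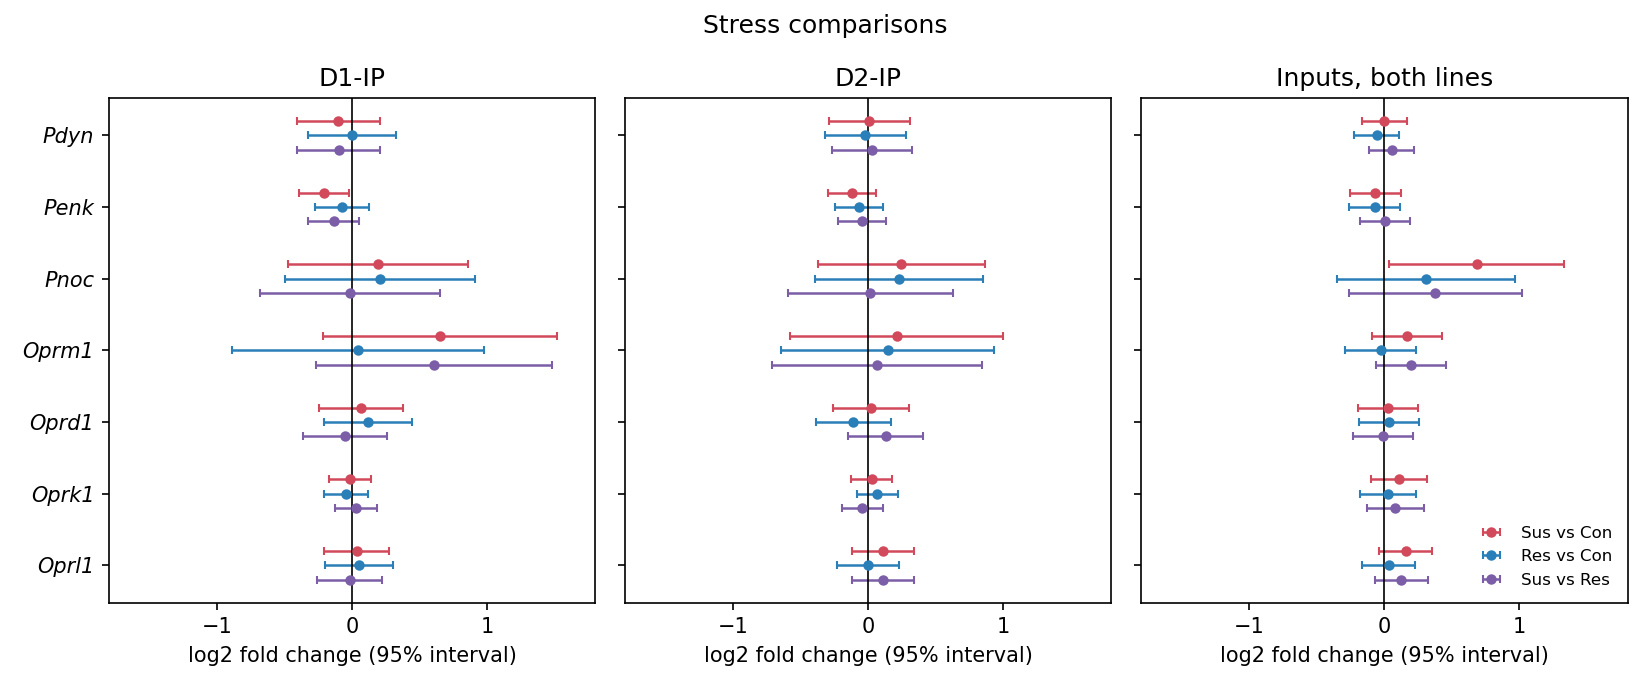
Log2 fold changes of the 7 opioid genes with 95% intervals for each pair of stress groups, by library type. Most intervals cross 0, the exceptions being *Penk* for D1 Sus vs Con (-0.21) and *Pnoc* for input Sus vs Con (0.69), and *Oprm1* and *Pnoc* have the widest.

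The width of the intervals followed the spread between replicates. Among IPs, the SD of log2 CPM within groups was 0.12 for *Oprk1*, 0.14 for *Penk*, 0.19 for *Oprl1*, 0.24 for *Oprd1*, 0.26 for *Pdyn*, 0.45 for *Pnoc* and 0.61 for *Oprm1*. Among inputs, it was 0.16 for *Pdyn*, 0.18 to 0.20 for *Penk*, *Oprl1*, *Oprk1* and *Oprd1*, 0.24 for *Oprm1* and 0.55 for *Pnoc*.

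The Sirt1-KO libraries were compared with the 4 D1 Con libraries in their own table. The targeted gene, *Sirt1*, was at 13.7 ± 2.64 CPM (SD, n = 4) in the libraries labelled Sirt1-KO and 14.7 ± 1.45 CPM in D1 Con, with a log2 fold change of -0.10 that did not pass (edgeR quasi-likelihood test, adjusted p = 0.77). The count covers the whole gene, so a floxed exon could be lost without it falling. The label was therefore not checked by the gene's count. Of the 7 opioid genes, 1 (*Oprk1*) was lower past the threshold in the libraries labelled Sirt1-KO and 0 were higher, against 0.749% of 13626 genes (0.279% higher and 0.470% lower). All 7 had a negative log2 fold change (-0.77 to -0.08), with a median of -0.37. The median of all genes was 0.00, so about as many of them lay below 0 as above it. The 7 values come from the same 8 libraries, so their signs are not independent. Whether the opioid genes share a direction more than genes at large was not tested.

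*Oprk1*, the receptor of dynorphin, was at 59.7, 48.4, 55.7 and 52.5 CPM in D1 Con and at 33.0, 31.0, 27.9 and 35.3 CPM in the libraries labelled Sirt1-KO. The groups did not overlap. Its log2 fold change was -0.77 (SE 0.09, 95% interval -0.96 to -0.58, edgeR quasi-likelihood test, adjusted p = 0.0027), or 1.70-fold lower, the 8th smallest p of all genes tested. It passed in all 8 fits that left out 1 library (-0.83 to -0.71).

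*Pdyn* was at 561, 450, 455 and 496 CPM in D1 Con and at 402, 377, 337 and 402 CPM in the libraries labelled Sirt1-KO, again with no overlap. Its log2 fold change of -0.37 (SE 0.08, edgeR quasi-likelihood test, adjusted p = 0.045) lay within the fold limit. In the 8 fits that left out 1 library it ran from -0.41 to -0.30 (edgeR quasi-likelihood test, adjusted p = 0.017 to 0.15). *Oprl1* (53.9 to 58.2 CPM against 49.0 to 51.5) also did not overlap, at -0.16 (adjusted p = 0.15). The groups did not overlap for 3 of the 7 genes, and for 9.53% of all genes.

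*Penk* was at 2698, 1921, 2032 and 1833 CPM in D1 Con and at 1589, 1318, 1347 and 2072 CPM in the libraries labelled Sirt1-KO, overlapping through Sirt1-KO 5. The log2 fold change was -0.42 (95% interval -0.76 to -0.09, edgeR quasi-likelihood test, adjusted p = 0.18). *Pnoc* (-0.41), *Oprm1* (-0.24) and *Oprd1* (-0.08) did not pass either. *Oprd1* was at 18.8, 18.8, 19.6 and 28.4 CPM in the libraries labelled Sirt1-KO, the last being Sirt1-KO 5, beside 20.5 to 24.0 CPM in D1 Con.

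Other measures moved with this comparison. *Drd1* was at 332 ± 38.0 CPM in D1 Con and 267 ± 35.1 CPM in the libraries labelled Sirt1-KO, and the 5 D1 markers summed to 773 to 936 against 582 to 745 CPM, though 0 of 5 passed. The 5 D2 markers summed to 454 to 650 against 358 to 560 CPM, with 0 of 5 past the threshold. The 6 cortical excitatory markers summed to 388 to 1067 against 877 to 1629 CPM, with a median log2 fold change of 0.85 and 0 of 6 past the threshold, and the 5 cholinergic markers tested had a median of -1.07, with 1 lower. The 8 GABAergic interneuron markers summed to 169 to 262 against 267 to 342 CPM, which do not overlap, with a median of 0.43 and 0 of 8 past the threshold. Their part in the *Oprk1* result was not tested. The Sirt1-KO libraries were submitted with their own labels and table, so genotype and library preparation cannot be told apart. Of the pathway genes, 1 passed, *Mme*, the enkephalin-degrading enzyme neprilysin, which was lower in the libraries labelled Sirt1-KO (log2 fold change -0.78, SE 0.12, edgeR quasi-likelihood test, adjusted p = 0.016). It was 1 of 7 degrading enzymes tested. In the lists of processing genes, G-protein subunits, GIRK channels, kinases and arrestins, RGS proteins and partners and transcription factors, 0 genes passed.

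**Figure D5:**
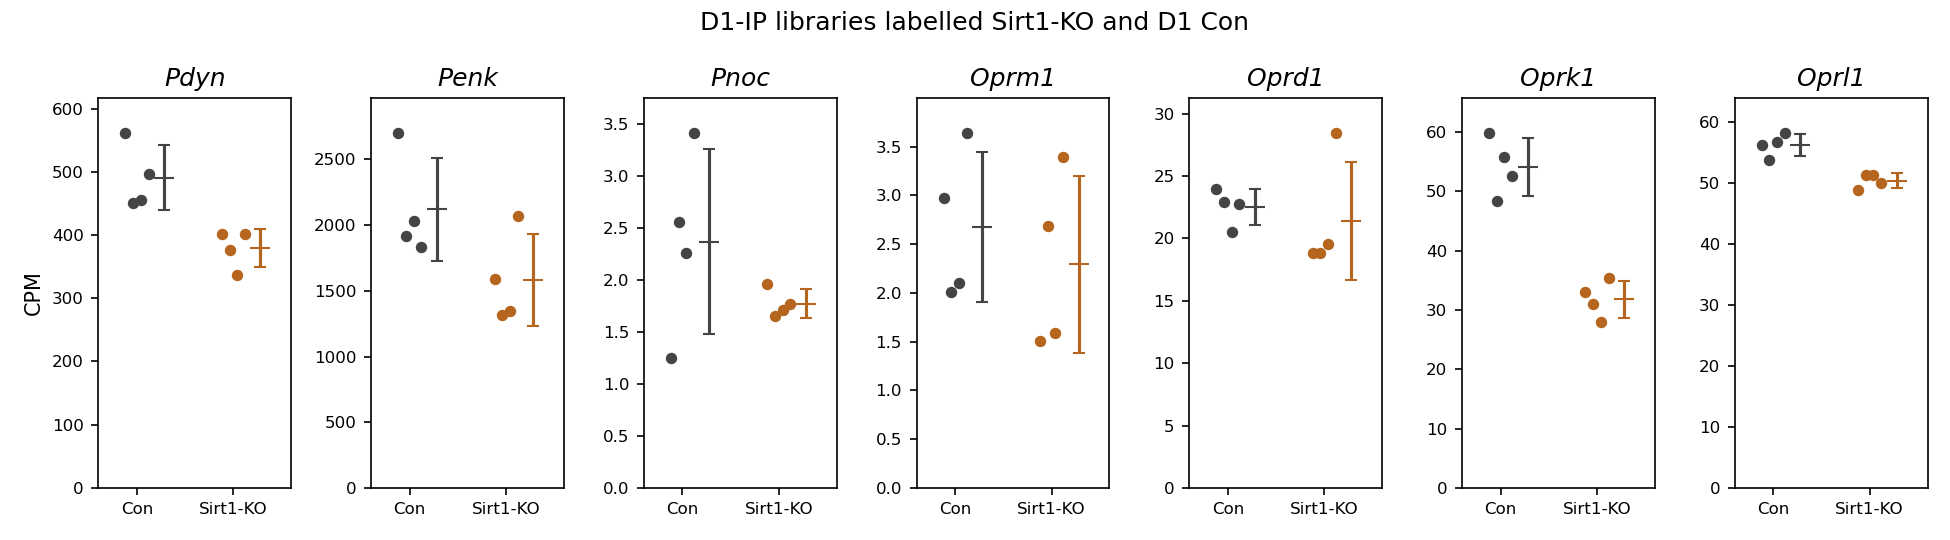
Level of the 7 opioid genes (CPM, linear axes from 0) in the 4 D1 Con libraries and the 4 libraries labelled Sirt1-KO; points are libraries, and crosses with bars are the mean ± SD. *Oprk1* (48.4 to 59.7 against 27.9 to 35.3 CPM), *Pdyn* and *Oprl1* do not overlap between the groups.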

How the data were processed

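The deposited values are raw counts per gene symbol. The submitters' processing notes name cutadapt, FastQC, STAR, HTSeq, DESeq2, HOMER and the mm10 genome, without versions, and do not name HTSeq for the Sirt1-KO samples. Columns without a sample (2) were not used, and 5 entries that name no gene, 18.0 to 40.0% of reads, were left out. Counts of the 4 D1 Con libraries were the same in both tables, and none of 76 replicate pairs was a duplicate.

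Counts were tested with edgeR 4.0.16 in R 4.3.3 (TMM scaling, filterByExpr at count 10 and total 15, glmQLFit, glmQLFTest, Benjamini-Hochberg adjustment over all genes tested). D1 was compared with D2, IP with input and Sirt1-KO with D1 Con with thresholds of 1.5-fold and an adjusted p of 0.05. Stress groups were compared at an unadjusted p under 0.05. These are the study's thresholds for D1 against D2 and for stress groups within IPs. Their use for IP against input, Sirt1-KO and stress in inputs was chosen here. Fits used all 28 IPs, all 46 IPs and inputs, the 18 inputs by line, the 18 inputs by stress (adjusted for line), and 8 libraries for Sirt1-KO. The script was tested on simulated data. Levels are TMM-scaled CPM, and the Sirt1-KO comparison has its own scaling. Positions, lengths and sequences come from GENCODE vM21. Figures used matplotlib 3.10.9.

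The members and gene lists were chosen with earlier results of these data known. All 7 opioid genes are named. Of each pathway list, up to 3 genes in each direction with the largest change among those called are named, and *Kcnj9*, *Pomc*, the pathway genes in the stress comparisons and the D2 markers beside *Penk* were named after their values were seen. Marker lists covered D1, D2, striosome, cholinergic, GABAergic, cortical, astrocyte, oligodendrocyte, microglia and endothelial genes. Alternatives were RLE size factors, other filters, DESeq2 1.42.0, fits of only the libraries or groups compared, each library left out, the replicate number as a block, and the IPs numbered 5 left out. IP and input share a homogenate, so that same-numbered IPs and inputs pair by design (median correlation of deviations 0.03 over 18 pairs). The same number in other groups does not mark a shared source in the labels.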

Additional observations from a re-analysis of the deposited data

Results flagged for a closer look

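In 49 tests, each of 1 gene in 1 group of 4 or 5 libraries, 5 values (from 4 libraries) stood apart from the others of their group by Dixon's test at the 95% level, which flags about 1 in 20 such tests by chance. *Oprm1* was at 8.90 CPM in D1 Sus 5, where the nearest library was at 3.91 CPM. *Oprk1* was at 40.4 CPM in D2 Res 5, below the next at 49.9 CPM. *Oprl1* was at 50.5 CPM in D1 Sus 5, below the next at 61.7 CPM, and at 71.7 CPM in D1 Res 1, above the next at 59.0 CPM. *Oprd1* was at 28.4 CPM in Sirt1-KO 5, above the next at 19.6 CPM. Of the 5, 3 are in IPs numbered 5 of the stress design, for which *Oprm1* is given above with and without them.

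The log2 ratio of IP to input differed between the D1 and D2 lines for *Pdyn* (2.20), *Penk* (-1.54), *Oprd1* (-1.29) and *Oprl1* (0.42), each by a test of the difference itself in edgeR (adjusted p = 4.1e-16, 7.9e-16, 1.6e-09 and 0.0040).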

How the results depend on the processing

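Of 399 recounts of the opioid genes called under the alternatives, 381 stayed within 1.5 times the reported count, and of 1281 refitted log2 fold changes 1237 kept their direction and side of the threshold, 35 lost the call, 1 gained it and 8 changed sign. With only the libraries compared, the count for D1 Sus vs Con was 0. Without the IPs numbered 5, chosen after seeing the data, the count for D2 Sus vs Res was 1 (*Oprl1*, log2 fold change 0.19). With 1 library left out, the counts ran from 0 to 1 for D1 Sus vs Con and from 0 to 1 for D1 Sus vs Res (*Oprm1*, without D1 Res 4). They ran from 0 to 2 for input Sus vs Con (*Oprl1* added without D1 Con input 2 or D2 Sus input 3) and from 0 to 1 for input Sus vs Res (*Pnoc* without D2 Res input 3, *Oprm1* without D2 Sus input 3). Sign changes were those of *Pnoc* for D2-IP vs input, at 0.10 in control libraries alone and -0.20 to 0.19 with 1 library left out, of *Oprm1* for D1 Sus vs D2 Sus (-0.65 to 0.021), and between the inputs of the lines of *Oprl1* (-0.11 to 0.010), *Oprm1* (-0.12 to 0.013) and *Pnoc* (-0.25 to 0.14). The cause was not tested.

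The replicate number as a block gave 0 opioid genes for input Sus vs Con and 3 for D1-IP vs D2-IP (*Oprm1* lost, -0.37). For Sirt1-KO vs D1 Con it gave 2 (*Penk* added, -0.62, edgeR quasi-likelihood test, adjusted p = 8.9e-05). That fit held only libraries whose number occurs in both groups, so D1 Con 2 and Sirt1-KO 5 were also left out. The effects of the block and of their removal were not told apart. The block changed no other opioid count, including IP vs input, where the pairing is by design and only paired libraries were used. Same-numbered IPs of different groups had a median correlation of deviations of 0.08 (23 of 66 pairs over 0.1), beside -0.02 (36 of 260) for IPs with other numbers. The values were 0.01 (13 of 45) for inputs and 0.07 (0 of 3) for Sirt1-KO with D1 Con. Pairing was not assumed, since the labels give none and not every pair was over 0.1, though IPs of 1 number were somewhat more alike.

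Counts over all genes moved by more than 1.5 times in 18 of 123 recounts. For Sirt1-KO vs D1 Con they went from 102 to 236 with DESeq2 and 170 without the filter. They went to 603 with the block, a fit that also left out D1 Con 2 and Sirt1-KO 5. With a mean count of at least 50 they went from 1089 to 622 for D1-IP vs D2-IP, 6632 to 4164 for D1-IP vs input, 6717 to 4209 for D2-IP vs input and 259 to 172 for the Sus vs Con interaction. Without the filter they went from 300 to 478 for D1 Res vs Con, 236 to 447 for D2 Sus vs Res, and, for the interactions, 335 to 520 (Res vs Con), 259 to 453 (Sus vs Con) and 289 to 513 (Sus vs Res). With the block they went from 430 to 690 for D2 Res vs Con, 335 to 568 for the Res vs Con interaction and 4 to 7 for the line inputs, which DESeq2 put at 11. Without the IPs numbered 5 they went from 236 to 498 for D2 Sus vs Res and from 335 to 509 for the Res vs Con interaction. *Pnoc* and *Oprm1* rest on 37 to 216 counts per IP, which limits what their comparisons can show.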
